A study of Mus musculus with 45 samples.

Results

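The genes described here control the step at which a resting cell commits to copying its DNA. They are the 3 D cyclins (Ccnd1, Ccnd2 and Ccnd3), the kinases Cdk4 and Cdk6 that the D cyclins activate, and 5 inhibitors of such kinases, Cdkn1a (p21), Cdkn1b (p27), Cdkn1c (p57), Cdkn2a (p16 and p19ARF) and Cdkn2c (p18). They were chosen by name, as a pathway, with earlier results of these data known. All 10 were among the 22904 genes of the deposited count table, and all 10 passed the filter on low counts that left 20306 genes for testing.

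In outline, D cyclins bind CDK4 or CDK6, and the active kinases phosphorylate the retinoblastoma protein RB, which frees E2F transcription factors to switch on genes of DNA replication. INK4 inhibitors (the Cdkn2 genes) bind CDK4 and CDK6 directly, whereas CIP/KIP inhibitors (the Cdkn1 genes) bind complexes of cyclins with CDKs. In mouse islets, cyclin D2 and CDK4 are known as the pair that beta cells need for growth after birth, and p16 is known for rising with age and limiting beta cell division.

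The data are bulk RNA sequencing of polyadenylated RNA from islets of Langerhans, the hormone-making cell clusters of the pancreas. The 12 groups are females and males of 3 inbred strains of wild-type mice, C57BL/6J (a common laboratory strain), CAST/EiJ (derived from wild mice) and NZO/HlLtJ (an obese, diabetes-prone strain), on 1 of 2 diets that both contained fiber, a control diet (10% fat) or one rich in fat and sugar (44% fat). Every group started its diet at 6 weeks of age, and islets were taken when the mice were 16 weeks old. There were 45 libraries, 4 in each of 9 groups and 3 each in NZO/HlLtJ males, whichever the diet, and in control CAST/EiJ males.

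Library totals ran from 57.2 to 110 M counts, with a median of 84.4 M. Beta cell markers were high in every library, with a summed level of 47400 to 174000 CPM for 9 genes, and acinar markers, which belong to the exocrine pancreas, summed to between 321 and 184000 CPM. A check on genes absent in one strain and present in another set 5 libraries apart, in which such genes reached 1.88 to 9.48% of the other strain's level, against at most 0.571% in the other 40. These were C57BL/6J female 44% fat replicate 2, CAST/EiJ female 44% fat replicates 1, 2 and 4, and NZO/HlLtJ male 44% fat replicate 3. Nothing in the labels ties each library to its own mouse, and p-values therefore measure only how these libraries vary, which may be technical. Levels of genes below are CPM, the usual scaling of counts to a common library size, with TMM factors as a correction for RNA composition, and a gene is called where its adjusted p in edgeR's quasi-likelihood test is under 0.05 after Benjamini-Hochberg adjustment over all 20306 genes. Sums of cell type markers, above and below, are CPM of library totals without TMM factors, which ran from 0.486 to 1.178. In bulk RNA, fewer cells of a type and less RNA per cell cannot be told apart.

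Promoters of 2 genes that fell together in NZO/HlLtJ islets on 44% fat, Cdk4 and Cdkn1b, are shown to place the members' sequence beside their values. Each is the 250 bases before the transcript start in RefSeq's annotation of GRCm38.p6, on the plus strand, at chr10:127063285-127063534 for Cdk4 and chr6:134920151-134920400 for Cdkn1b. Capitals mark each CACGTG (an E-box, the sequence that MYC and related factors bind) and each CCAAT (the box that NF-Y binds).
Cdk4 promoter: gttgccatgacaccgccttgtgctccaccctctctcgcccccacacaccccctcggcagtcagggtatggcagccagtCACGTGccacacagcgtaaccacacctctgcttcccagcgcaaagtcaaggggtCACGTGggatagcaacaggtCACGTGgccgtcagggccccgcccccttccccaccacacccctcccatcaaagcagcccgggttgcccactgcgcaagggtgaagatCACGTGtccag
Cdkn1b promoter: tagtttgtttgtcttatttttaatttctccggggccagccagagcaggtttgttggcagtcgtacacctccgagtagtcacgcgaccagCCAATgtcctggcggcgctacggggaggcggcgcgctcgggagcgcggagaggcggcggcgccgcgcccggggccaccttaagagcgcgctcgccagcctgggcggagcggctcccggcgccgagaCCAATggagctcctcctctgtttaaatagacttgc
The Cdk4 window held 4 CACGTG matches, which begin 172, 118, 98 and 11 bases before the start. Of 32851 mouse promoter windows of this length, 6.02% held at least 1 CACGTG and 7 windows (0.0213%) held 4 or more, searched on both strands. The Cdkn1b window held no CACGTG and 2 CCAAT matches, 161 and 35 bases before the start, a motif that 33.8% of windows held on either strand. Among the other members' windows, that of Cdk6, which rose on this diet, held 1 CACGTG, 220 bases before the start. A Ccnd3 window held 1 CCAAT, 108 bases before the start. The windows available for the members covered 7 of the 10 genes, and TTTCGCGC or TTTGGCGC, forms of the E2F site, occurred in none of them and in 0.654% of all windows. Other forms of the site were not searched for, and a Cdkn2a window holds such a form, TTTCCCGC. Those matches describe letters in a window and say nothing of which factors were bound in these islets.

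Among the members, Ccnd2 RNA was by far the most abundant per length. Its median over the 45 libraries was 137 CPM per kb of exon, followed by Cdk4 at 28.3, Ccnd1 at 20.2, Cdkn1b at 16.8 and Cdkn1a at 8.62 CPM per kb. Ccnd3 had 4.27 and Cdkn2c 3.12 CPM per kb. Cdkn1c, Cdk6 and Cdkn2a were low, at 0.856, 0.424 and 0.176 CPM per kb. Cdkn2a rested on 2 to 49 counts per library, so its values carry a large counting error. Ccnd2 made up 63.6 to 92.2% of the summed D cyclin level per length in all 45 libraries, and Cdk4 made up 93.1 to 99.5% of the Cdk4 and Cdk6 sum.

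**Figure D1:**
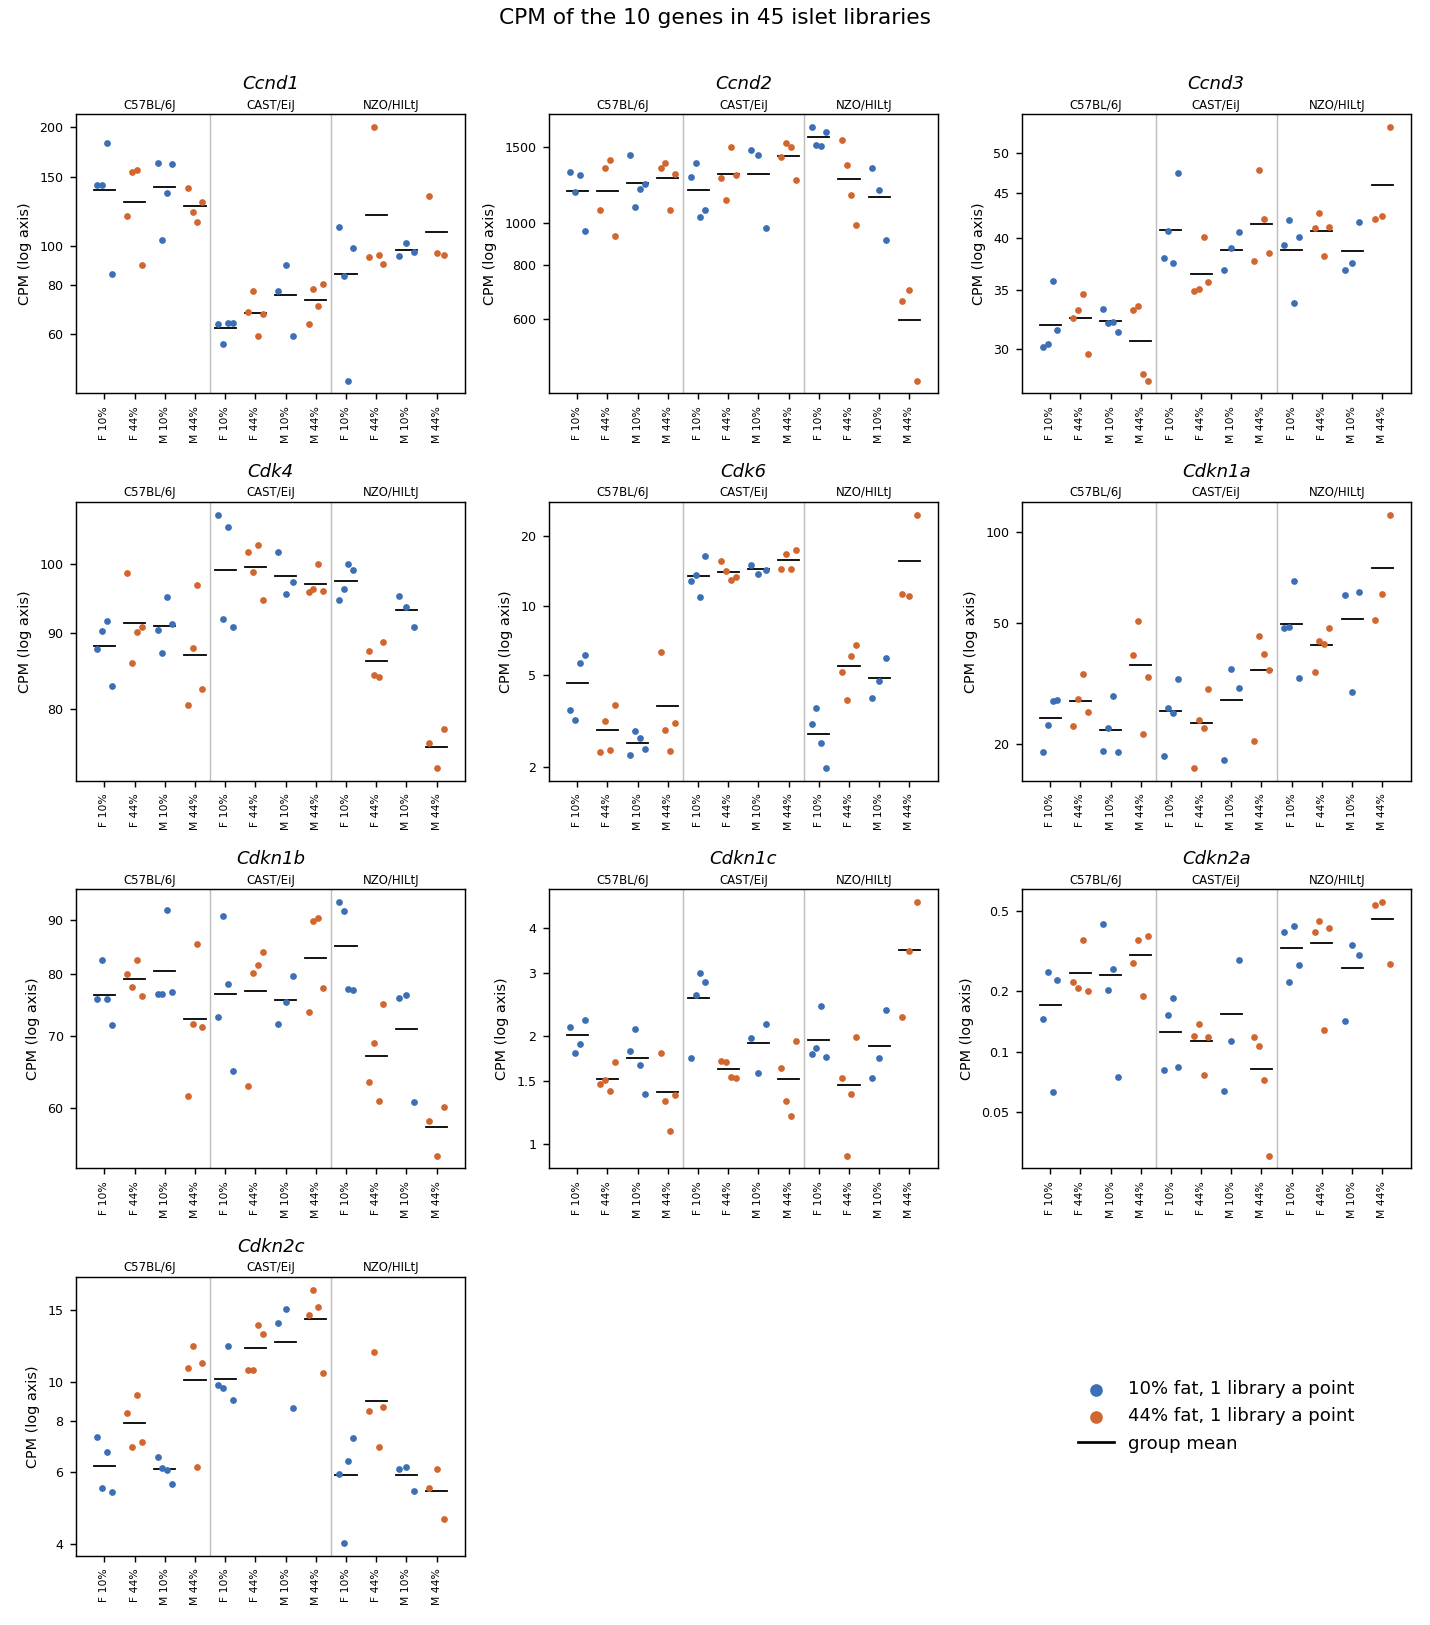
CPM (log axis, with a different range in each panel) of the 10 genes in each of 45 libraries, grouped by strain, sex (F, M) and percent fat in the diet, with blue points for 10% and orange points for 44% fat and a black bar for the group mean. Cdk6 stands highest in CAST/EiJ and in NZO/HlLtJ males on 44% fat. Ccnd2 and Cdk4 are lowest in these NZO/HlLtJ males.

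The diet comparison asks how a high fat, high sugar diet changed these genes in each strain. In NZO/HlLtJ, as the mean over the sexes, 4 of the 10 genes passed the test: Ccnd2, Cdk4 and Cdkn1b fell and Cdk6 rose. That is 1 higher and 3 lower in a comparison in which 35.8% of all genes tested were called, so the share of members called is close to the background. In NZO/HlLtJ females 4 members were called (2 higher, 2 lower) beside 17.2% of all genes, and in NZO/HlLtJ males 5 members (2 higher, 3 lower) beside 32.1%. Neither count was stable. The female count was 1 with library totals, 0 with that strain's libraries alone, 1 without 10% fat replicate 2, and 2 without 44% fat replicate 2 or 3. The male count was 3 with library totals, without the 5 libraries that stood apart, or without 10% fat replicate 1 or 44% fat replicate 3. With library totals fewer of all genes were called too, 1489 against 3492 in females and 3308 against 6518 in males. Counts over all genes in the other refits are not given here.

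No member was called by edgeR for diet in C57BL/6J or CAST/EiJ. The background there was small too. It was 0.0246% of genes in C57BL/6J and 0.0443% in CAST/EiJ as means over the sexes, 0% in C57BL/6J females, 0.0443% in C57BL/6J males, 0.256% in CAST/EiJ females and 0.00985% in CAST/EiJ males. As means over the sexes, 3 members in C57BL/6J and 1 in CAST/EiJ had an unadjusted p under 0.05. Of all 20306 genes, 755 and 1566 did. In C57BL/6J females and males these member counts were 1 and 3, beside 658 and 854 of all genes. In CAST/EiJ females and males they were 1 and 0, beside 2060 and 572 of all genes. DESeq2 called 1 of the 10, Cdkn2c, in C57BL/6J males and in the mean over the sexes, beside 46 and 48 of all 20306 genes. It called 0 members in C57BL/6J females, beside 6 of all genes. In CAST/EiJ it called 0 members in the mean, in females and in males, beside 36, 166 and 4 of all genes.

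**Figure D2:**
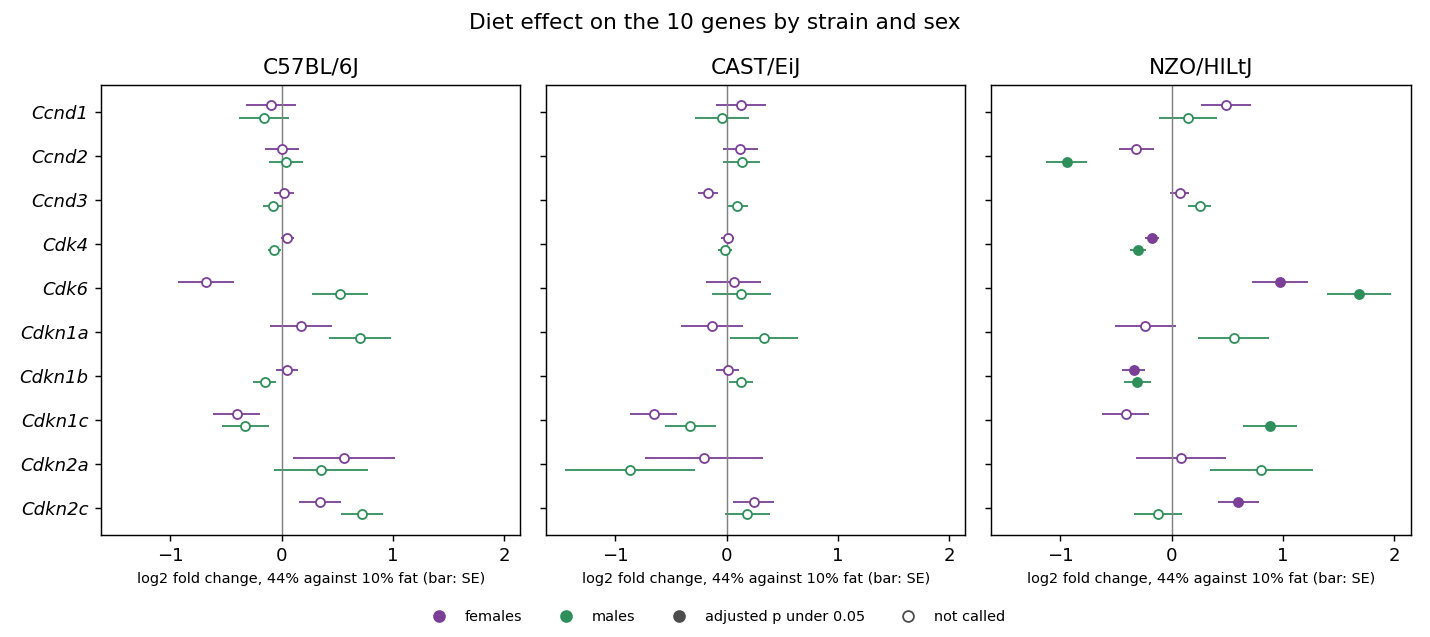
Log2 fold change of each gene on 44% against 10% fat in females (purple) and males (green) of each strain, with bars for the standard error and filled points for an adjusted p under 0.05. All filled points are in NZO/HlLtJ, where Cdk6 is at 0.98 in females and 1.69 in males.

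Ccnd2 encodes cyclin D2, the main D cyclin of mouse beta cells. In NZO/HlLtJ males on 10% fat its level was 912, 1190 and 1340 CPM, and on 44% fat it was 431, 659 and 698 CPM. The 44% fat libraries were all lower and the groups did not overlap. The log2 fold change was -0.94 (SE 0.182, adjusted p = 0.000165), to 0.52 of the control level.

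In NZO/HlLtJ females Ccnd2 was at 1510, 1520, 1630 and 1670 CPM on 10% fat and at 988, 1160, 1360 and 1560 CPM on 44% fat. Here 1 library on 44% fat lay within the range of the controls, and the log2 fold change of -0.32 (SE 0.156) was not called, with an adjusted p of 0.156. Whether the sexes differed was tested as a diet-by-sex interaction, which for Ccnd2 was -0.62 (SE 0.239, adjusted p = 0.087) and was not called, though it was with the leading number of the sample codes as a factor (-0.93, adjusted p = 0.00269). As the mean over the sexes Ccnd2 fell by 0.63 on the log2 scale (SE 0.12, adjusted p = 8.15e-05).

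In C57BL/6J and CAST/EiJ the level of Ccnd2 on either diet stayed between 934 and 1530 CPM. The diet effect was 0.02 (SE 0.11) in C57BL/6J and 0.13 (SE 0.115) in CAST/EiJ, neither called. The difference of the diet effects was itself called, at -0.65 (SE 0.163, adjusted p = 0.0049) for NZO/HlLtJ against C57BL/6J and at -0.76 (SE 0.166, adjusted p = 0.00107) against CAST/EiJ. These comparisons share the NZO/HlLtJ libraries.

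Ccnd1 encodes cyclin D1, which many growth signals induce. Its diet effect in NZO/HlLtJ was 0.32 (SE 0.173) and was not called. A single female on 44% fat stood at 200 CPM, while the other 3 lay between 90.3 and 95.3 CPM and the 4 controls between 45.8 and 112 CPM. Ccnd3, which encodes cyclin D3, was at 36.8 to 41.7 CPM in NZO/HlLtJ males on 10% fat and at 42.1, 42.4 and 53.5 CPM on 44% fat. These ranges did not overlap, yet edgeR did not call the log2 fold change of 0.25 (SE 0.102, adjusted p = 0.0548), while DESeq2 did (0.32, adjusted p = 0.011). For the mean over the sexes, edgeR gave 0.16 (SE 0.0675, not called), while DESeq2 called Ccnd3 at 0.20 (adjusted p = 0.0147).

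Taken per length, the D cyclins as a sum went from 147 ± 22.8 to 91.6 ± 17 CPM per kb (SD, n = 3 each) in NZO/HlLtJ males. Ccnd2 went from 82.6 ± 3.09% to 68.7 ± 5.59% of that sum, and Ccnd1 from 14.4 ± 2.39% to 25.3 ± 4.19%. The 3 male libraries on 44% fat had Ccnd2 shares of 63.6 to 74.6%, below those of all other groups, whose lowest library had 75.4%. These shares are a description, with no test.

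**Figure D3:**
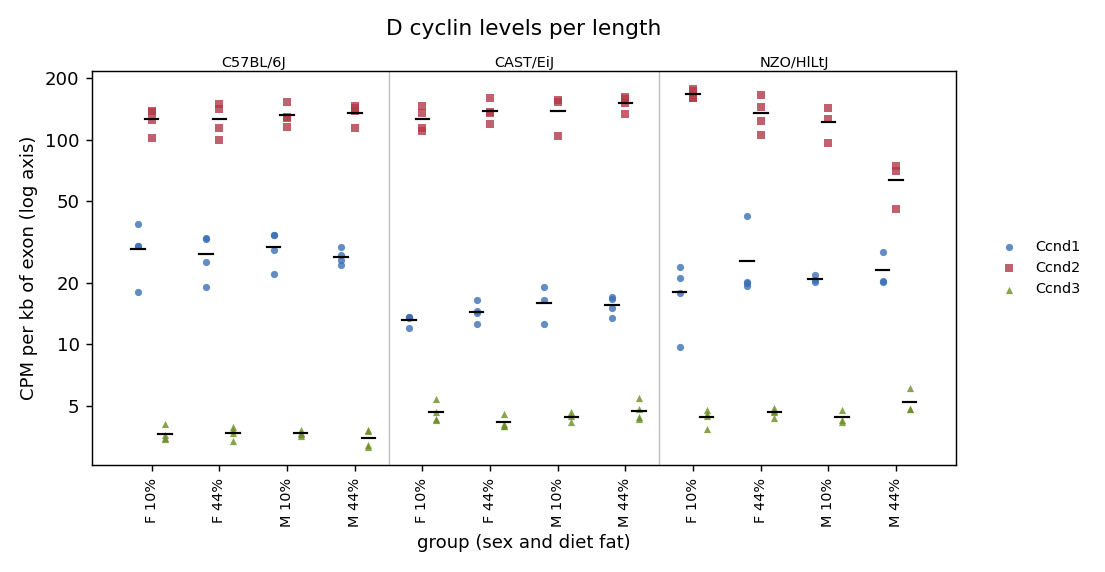
CPM per kb of exon (log axis) of the 3 D cyclin genes in each library of the 12 groups, with a black bar for the group mean. Ccnd2 is the highest in every group and reaches its lowest mean, 63.4 CPM per kb, in NZO/HlLtJ males on 44% fat.

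Cdk4 encodes the kinase partner of cyclin D2 in beta cells. The fall was small and even across libraries. In NZO/HlLtJ males Cdk4 was at 90.8, 93.6 and 95.2 CPM on 10% fat and at 73, 75.9 and 77.5 CPM on 44% fat. In females it was at 94.7, 96.3, 99.1 and 100 CPM on 10% fat and at 84.1, 84.3, 87.5 and 88.7 CPM on 44% fat. In neither sex did the diet groups overlap.

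Cdk4 fell in both sexes, with a log2 fold change of -0.30 (SE 0.071, adjusted p = 0.00121) in males and -0.18 (SE 0.0614, adjusted p = 0.0385) in females. With counts scaled to library totals alone, neither was called, although the values were -0.36 (adjusted p = 0.263) and -0.39 (adjusted p = 0.159). In females the call was lost in 9 of 18 alternative fits, of which library totals and the acinar covariate given below were 2. It was also lost without any of 5 single libraries, 10% fat replicates 2, 3 and 4 and 44% fat replicates 2 and 3, with adjusted p of 0.0619 to 0.0984. The others were that strain's libraries alone (-0.19, adjusted p = 0.109) and no expression filter (-0.18, adjusted p = 0.0503). As the mean over the sexes Cdk4 fell by 0.24 on the log2 scale (SE 0.0469, adjusted p = 0.000109), and in the other strains its diet effect was -0.01 (SE 0.0434) in C57BL/6J and -0.00 (SE 0.0452) in CAST/EiJ. The diet effect in NZO/HlLtJ was lower than in C57BL/6J by 0.24 (SE 0.0639, adjusted p = 0.00914) and than in CAST/EiJ by 0.24 (SE 0.0652, adjusted p = 0.0064), calls that library totals alone also ended (adjusted p = 0.115 and 0.0951).

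Cdk6 encodes the second D cyclin kinase, which blood cells use widely. It rose in NZO/HlLtJ of both sexes. In males it was at 3.97, 4.73 and 5.93 CPM on 10% fat and at 11, 11.2 and 24.9 CPM on 44% fat. In females it was at 1.97, 2.54, 3.05 and 3.58 CPM on 10% fat and at 3.91, 5.17, 6.06 and 6.78 CPM on 44% fat. The diet groups did not overlap in either sex, and the highest library was male 44% fat replicate 3, 1 of the 5 libraries with transcripts of another strain.

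For Cdk6 the log2 fold change was 1.69 (SE 0.29, adjusted p = 4.64e-05) in males, a 3.22-fold rise, and 0.98 (SE 0.251, adjusted p = 0.00595) in females, a 1.97-fold rise. The female call was lost in 1 of 18 alternative fits, that strain's libraries alone (0.97, adjusted p = 0.0515). As the mean over the sexes the log2 fold change was 1.33 (SE 0.192, adjusted p = 1.85e-06), and 1.07 (adjusted p = 0.000137) without the 5 libraries. The diet effect exceeded that in C57BL/6J by 1.41 (SE 0.26, adjusted p = 0.000412) and that in CAST/EiJ by 1.24 (SE 0.26, adjusted p = 0.000794). In C57BL/6J, Cdk6 had unlike diet effects in the sexes, -0.68 (SE 0.25) in females and 0.52 (SE 0.252) in males, and their difference of 1.20 (SE 0.355) was not called.

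Cdkn1b encodes p27, a CIP/KIP inhibitor that holds cells in a resting state. In NZO/HlLtJ females it was at 77.3, 77.5, 91.7 and 93.5 CPM on 10% fat and at 60.9, 63.4, 69 and 75 CPM on 44% fat. In males it was at 60.8, 76.1 and 76.6 CPM on 10% fat and at 54.1, 58.3 and 60.1 CPM on 44% fat. All libraries on 44% fat lay below those on 10% fat of the same sex, with a narrow gap in males.

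Cdkn1b had a log2 fold change of -0.34 (SE 0.103, adjusted p = 0.0182) in females, -0.31 (SE 0.119, adjusted p = 0.0431) in males and -0.32 (SE 0.0785, adjusted p = 0.00126) as the mean over the sexes. The male call was lost in 12 of 16 alternative fits. Among them were DESeq2 (-0.24, adjusted p = 0.122), RLE normalisation (-0.24, adjusted p = 0.119) and library totals (-0.36, adjusted p = 0.299). It was also lost without any of 5 single libraries, all but 10% fat replicate 3 (adjusted p = 0.0673 to 0.16). The female call was lost in 5 of 18. These were the fits without 10% fat replicate 1 or 2 or 44% fat replicate 3 (adjusted p = 0.0648 to 0.0746), with library totals (-0.56, adjusted p = 0.0736) and with that strain's libraries alone (-0.35, adjusted p = 0.0528). Against CAST/EiJ the diet effect was lower by 0.39 (SE 0.109, adjusted p = 0.00704), a call that library totals alone ended (-0.60, adjusted p = 0.051), and against C57BL/6J the difference of -0.27 (SE 0.107) was not called.

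Cdkn1c encodes p57, an imprinted inhibitor expressed from the maternal chromosome. NZO/HlLtJ males had it at 1.53, 1.74 and 2.36 CPM on 10% fat and at 2.26, 3.45 and 4.72 CPM on 44% fat, so the groups overlapped by 1 library. In females it was at 1.75 to 2.42 CPM and at 0.928 to 1.99 CPM, again with overlap. Cdkn1c was the single member with a called diet-by-sex interaction in NZO/HlLtJ, 1 of 10 in the direction of males higher beside 10% of all genes called. Apart from libraries whose sample codes begin with 76, this contrast cannot be told apart from that of codes beginning with 80 against 89.

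The log2 fold change of Cdkn1c was 0.89 (SE 0.242, adjusted p = 0.00479) in males and -0.41 (SE 0.213, not called) in females, and the interaction was 1.30 (SE 0.322, adjusted p = 0.00959). Without male 44% fat replicate 3, the male effect was 0.60 (adjusted p = 0.102) and the interaction 1.02 (adjusted p = 0.0945), so both calls rested on that library, which also carried transcripts of another strain. Without male 10% fat replicate 1 the male effect was 0.73 (adjusted p = 0.0546). Against CAST/EiJ the diet effect on Cdkn1c was higher by 0.73 (SE 0.224, adjusted p = 0.015), a call lost without either of these libraries (adjusted p = 0.0552 and 0.0521). Against C57BL/6J the difference of 0.60 (SE 0.22, adjusted p = 0.0507) just missed the threshold in edgeR, and DESeq2 called it (0.63, adjusted p = 0.0286). In the other strains Cdkn1c had diet effects of -0.36 (SE 0.151) in C57BL/6J and -0.49 (SE 0.156, adjusted p = 0.473) in CAST/EiJ, neither called.

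Cdkn1a encodes p21, a target of p53. Its diet effect was not called in any strain or sex. NZO/HlLtJ males had 29.5, 61.9 and 63.5 CPM on 10% fat and 51.2, 62.3 and 114 CPM on 44% fat, groups that overlapped widely. On the log2 scale the change there was 0.56 (SE 0.322). Of the CIP/KIP sum per length, Cdkn1a made up 58.2 ± 8.47% in these males on 44% fat and 45.7 ± 12.2% on 10% fat (SD, n = 3), and Cdkn1b 37 ± 8.84% and 51.3 ± 12.1%.

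Of the INK4 inhibitors, Cdkn2c, which encodes p18, was called in NZO/HlLtJ females. It was at 4.02, 5.94, 6.41 and 7.3 CPM on 10% fat and at 6.91, 8.46, 8.65 and 11.8 CPM on 44% fat, with 1 library of each group inside the other's range. The log2 fold change was 0.60 (SE 0.186, adjusted p = 0.0223), and the call was lost without 10% fat replicate 2 (0.45, adjusted p = 0.114) or 44% fat replicate 2 (0.44, adjusted p = 0.131), with library totals (0.37, adjusted p = 0.314) and with that strain's libraries alone (0.58, adjusted p = 0.0624). In NZO/HlLtJ males the value was -0.13 (SE 0.216), and the difference between the sexes, -0.72 (SE 0.285, adjusted p = 0.0966), was not called, though it was with the leading number of the sample codes as a factor (-1.04, adjusted p = 0.0137).

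In C57BL/6J males Cdkn2c was at 5.61, 6.08, 6.16 and 6.55 CPM on 10% fat and at 6.19, 10.8, 11.1 and 12.2 CPM on 44% fat. Of the 4 libraries on 44% fat, 3 lay above every control. Their log2 fold change of 0.72 (SE 0.187, adjusted p = 0.222) was not called by edgeR, but was called without 44% fat replicate 3 (0.90, adjusted p = 0.0232) and by DESeq2 (0.73, adjusted p = 0.0447). Cdkn2a, whose counts do not separate p16 from p19ARF, had no called diet effect. NZO/HlLtJ males had 0.142 to 0.342 CPM on 10% fat and 0.275 to 0.556 CPM on 44% fat, which gave a log2 fold change of 0.81 (SE 0.464).

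Over all 10 members, 3 passed the test of the diet-by-strain interaction for NZO/HlLtJ against C57BL/6J (1 higher, 2 lower, beside 18.8% of all genes) and 5 for NZO/HlLtJ against CAST/EiJ (2 higher, 3 lower, beside 25.7%). None was called for CAST/EiJ against C57BL/6J, with 0.0197% of all genes called. For the diet-by-sex interaction none was called in C57BL/6J (0% of all genes) or CAST/EiJ (0.0295%). By DESeq2 these 3 counts were 0 as well, beside 23, 9 and 32 of all 20306 genes. At an unadjusted p under 0.05 they were 0, 1 and 0, beside 700, 805 and 1002 of all genes.

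Sample codes begin with 76, 80 or 89, and what these series stand for is not explained. Among NZO/HlLtJ libraries, series 80 held females on 10% and males on 44% fat and series 89 the reverse, so within a sex diet and series were partly confounded. Series 76 held both diets in both sexes. Within it, males went from 1340 to 659 CPM of Ccnd2, from 95.2 to 75.9 CPM of Cdk4, from 3.97 to 11.2 CPM of Cdk6 and from 76.1 to 58.3 CPM of Cdkn1b, with 1 library per diet. Females of series 76 had 1520 and 1670 CPM of Ccnd2 on 10% fat against 1360 and 1560 CPM on 44% fat, and 3.05 and 3.58 against 3.91 and 5.17 CPM of Cdk6. With the series as a factor in the model, the mean diet effect was -0.66 for Ccnd2, -0.24 for Cdk4, 1.34 for Cdk6 and -0.33 for Cdkn1b, and all 4 were called. A shift between series 80 and 89 would enter the female and male diet effects with opposite signs and largely cancel in this mean. The refit could therefore move the mean little, and no conclusion on the series is drawn from it. In the diet-by-sex interaction of NZO/HlLtJ such a shift would add up instead.

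Markers of other cell types moved with diet in NZO/HlLtJ. The summed level of 8 macrophage markers went from 82.1, 144 and 237 CPM to 482, 489 and 797 CPM in males and from 60.5 to 73.4 CPM to between 136 and 203 CPM in females, and all 8 markers were called higher in each sex. The 7 lymphocyte markers went from 2.81 to 5.22 CPM to between 15.4 and 48.7 CPM in males (6 of 7 called higher). The 9 beta cell markers summed to 141000 to 174000 CPM in males on 10% fat and to 51500 to 106000 CPM on 44% fat, with 8 of 9 called lower, whereas in females 2 were called higher and 1 lower. Duct, fibroblast and acinar markers were also above the male controls, at 806 to 1490 against 351 to 619 CPM, 1460 to 3220 against 290 to 1140 CPM, and 47800 to 95900 against 25900 to 33800 CPM. In females the 6 alpha cell markers summed to 20900 to 24300 CPM on 10% fat and to 12800 to 16200 CPM on 44% fat, and the 4 delta cell markers to 2310 to 2820 CPM and 1080 to 1690 CPM, without overlap. Of these, 4 alpha cell markers were called lower and 2 higher, and 3 delta cell markers lower. Female fibroblast markers summed to 329 to 508 CPM on 10% fat and to 500 to 978 CPM on 44% fat, with 3 of 7 called higher, and duct markers to 276 to 381 CPM and 377 to 664 CPM, with 4 of 7 called higher.

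Male 44% fat replicate 3 had the lowest beta cell sum of its group and the highest macrophage, lymphocyte, duct, fibroblast and acinar sums, along with the lowest Ccnd2 and the highest Cdk6, Cdkn1a and Cdkn1c. The part of these cell types in the diet effects on Ccnd2, Cdk4, Cdk6, Cdkn1b, Cdkn1c and Cdkn2c was not tested. With the acinar marker score as a covariate, the mean diet effects were -0.59 for Ccnd2, -0.22 for Cdk4, 1.23 for Cdk6 and -0.31 for Cdkn1b, all called. By sex, the same covariate ended the call of Cdk4 in females (-0.16, adjusted p = 0.06) and that of Cdkn1b in males (-0.30, adjusted p = 0.0588). In CAST/EiJ, where Cdk6 was at 10.9 to 17.4 CPM, the macrophage sum was between 54.3 and 132 CPM in 14 libraries and 380 CPM in male 10% fat replicate 3, whose Cdk6 was at 14.3 CPM.

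**Figure D4:**
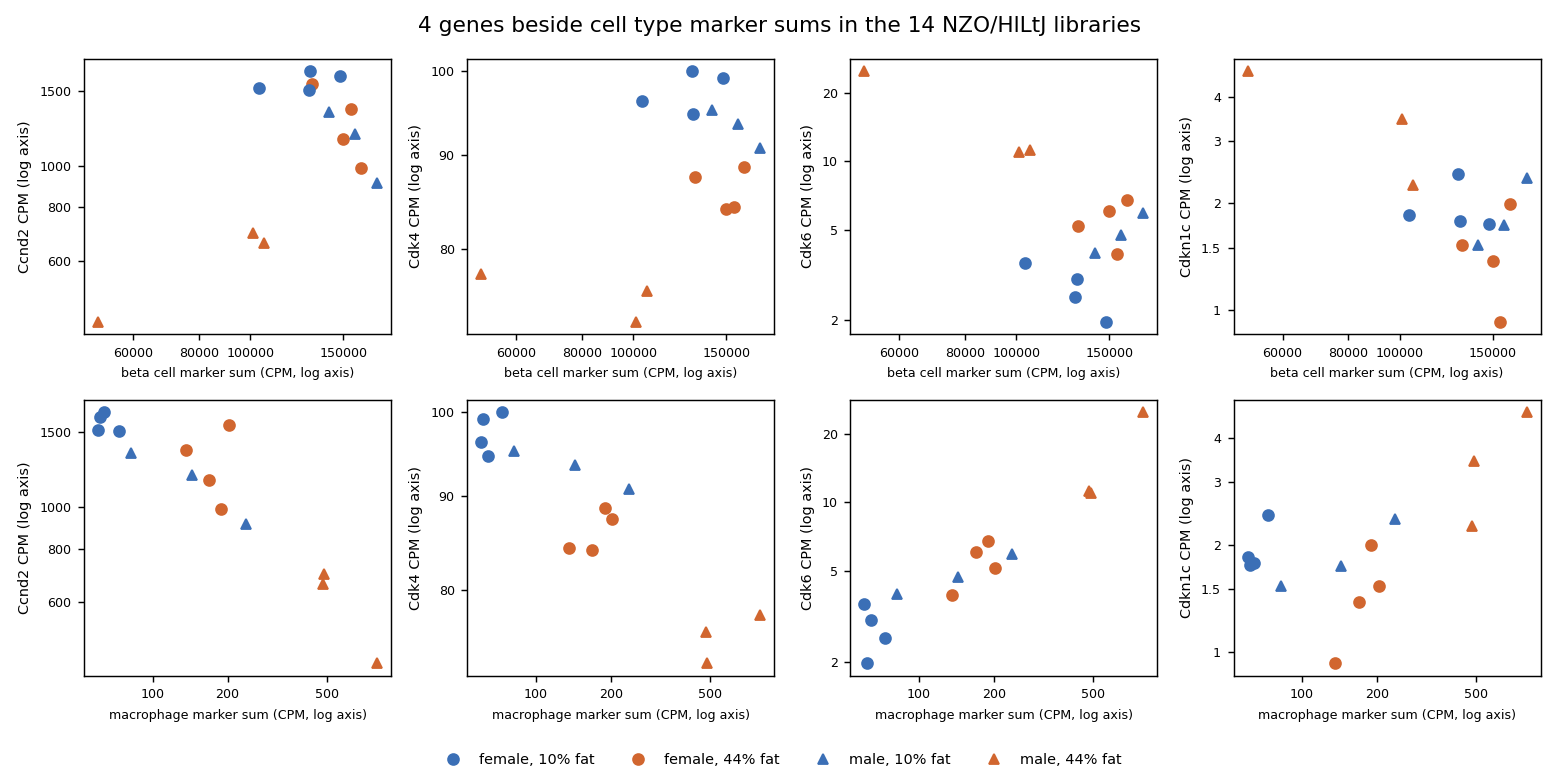
Level of Ccnd2, Cdk4, Cdk6 and Cdkn1c in the 14 NZO/HlLtJ libraries against the summed CPM of 9 beta cell markers (top) and 8 macrophage markers (bottom), all axes logarithmic, with circles for females, triangles for males, blue for 10% and orange for 44% fat. The 3 males on 44% fat lie apart at the highest macrophage sums, 482 to 797 CPM, with the highest Cdk6 and the lowest Ccnd2 and Cdk4. Gene levels use TMM factors and marker sums do not.

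Other cell cycle genes around the D cyclin kinases moved in NZO/HlLtJ as follows, each list beside the 35.8% of all genes called and their median log2 fold change of -0.02. All 20 markers of S phase and mitosis were called higher as the mean over the sexes, with a median log2 fold change of 1.17. Among them were the replication helicase subunits Mcm5 at 1.18 (adjusted p = 1.2e-07) and Mcm6 at 0.80 (adjusted p = 2.47e-07), and the mitotic kinase Aurkb at 1.85 (adjusted p = 2.02e-07). In females 19 of the 20 were called higher beside 17.2% of all genes called, and in males 17 of the 20 beside 32.1%. In C57BL/6J males 2 of the 20 were called beside 0.0443% of all genes, the mitotic cyclin Ccnb2 at 1.48 and topoisomerase Top2a at 1.27 (adjusted p = 0.0494 each).

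In the RB and E2F list, 3 of 17 genes were called higher and 5 lower. The repressor E2Fs E2f7 at 1.14 (adjusted p = 5.35e-07) and E2f8 at 1.71 (adjusted p = 1.47e-06) rose with E2f2, and Lin52 of the DREAM complex fell by 0.47 (adjusted p = 1.54e-05). Rb1, which encodes RB, was at 27.9 ± 3.49 CPM in males on 10% fat and 21.6 ± 0.954 CPM on 44% fat (SD, n = 3), with a mean log2 fold change over the sexes of -0.34 (SE 0.07, adjusted p = 0.000243). Of 13 other G1/S genes 4 were called higher and 1 lower, with the cyclin A2 gene Ccna2 at 1.48 (adjusted p = 2.09e-07), the licensing factor gene Cdt1 at 1.10 (adjusted p = 8.6e-06) and Cdk2 at 0.95 (adjusted p = 1.72e-05). Of the 3 other genes named as CDK inhibitors, Cdkn3, which is neither an INK4 nor a CIP/KIP gene, rose by 1.38 (adjusted p = 0.00358). The INK4 genes Cdkn2b and Cdkn2d were at -0.04 and 0.06 and not called.

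**Figure D5:**
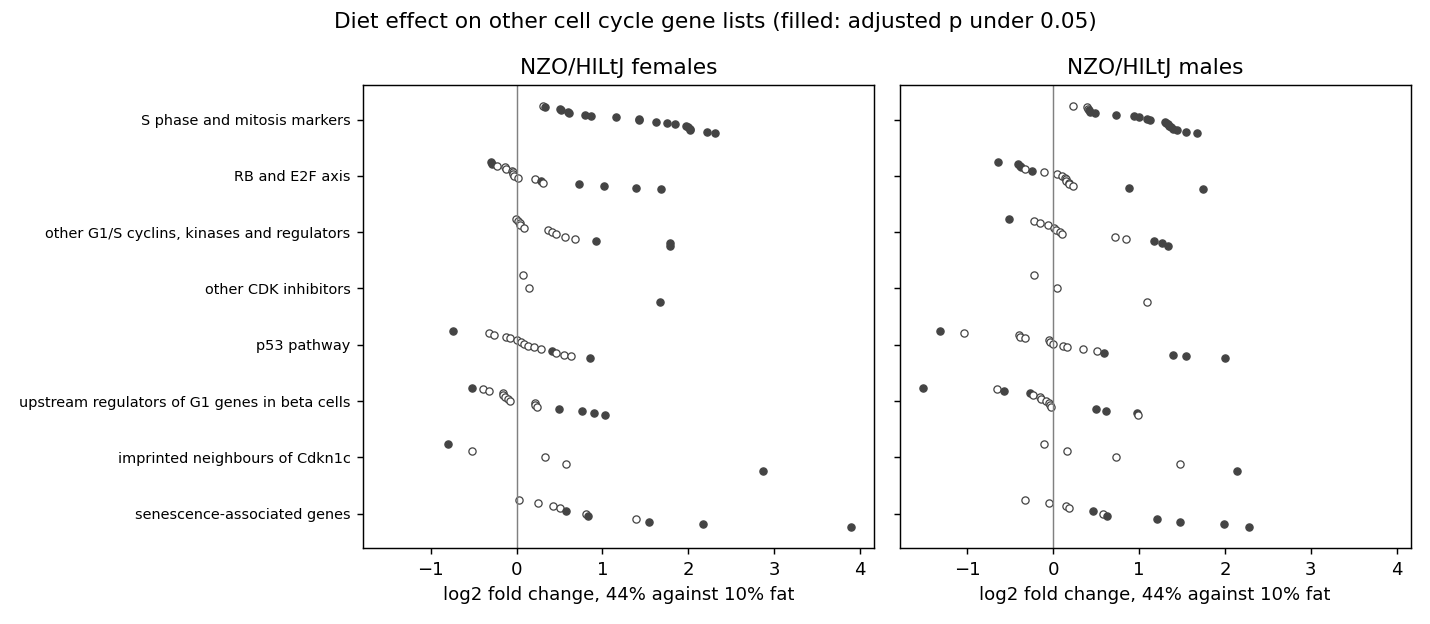
Log2 fold change on 44% against 10% fat of each gene of 8 cell cycle lists in NZO/HlLtJ females (left) and males (right), 1 gene a point, filled where the adjusted p was under 0.05. Every S phase and mitosis marker lies above 0 in both sexes, while the other lists hold genes on both sides of 0 in at least 1 sex.

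Upstream of the members, 3 of 15 regulators were called higher and 4 lower in the NZO/HlLtJ mean diet effect, beside 35.8% of all genes called in either direction. Bmi1, a Polycomb gene known to hold Cdkn2a silent, fell by 0.55 (adjusted p = 4.18e-06). Prlr, the prolactin receptor, fell by 0.82 (adjusted p = 0.000319), and Foxm1, a driver of mitotic genes, rose by 1.01 (adjusted p = 1.2e-05). Myc was at 0.12 (SE 0.231) as the mean over the sexes and not called, with a called diet-by-sex interaction of -1.55 (SE 0.465, adjusted p = 0.0287).

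Of the 16 genes of the p53 list 5 were called higher and 1 lower in the NZO/HlLtJ mean diet effect, a share near the 35.8% of all genes called. Phlda3 at 1.20 (adjusted p = 4.27e-07) and Eda2r at 1.23 (adjusted p = 3.43e-05), both p53 targets, rose, and Sesn2 fell by 0.57 (adjusted p = 0.000185). Of 11 genes often measured in senescent cells, 9 were called higher, among them Hmgb2 at 1.02 (adjusted p = 5.96e-06), Timp1 at 1.77 (adjusted p = 5.92e-05) and Ccl2 at 1.82 (adjusted p = 0.000386). Hmgb2, like Lmnb1 of the same list, is known for a loss, not a gain, in senescent cells, so the count mixes genes of unlike direction. Timp1 is made by stromal cells and Ccl2 attracts monocytes. The part of senescence or of other cell types in these values was not tested. Among 5 tested imprinted neighbours of Cdkn1c, H19 rose by 2.50 (adjusted p = 0.000323) and Kcnq1 by 1.03 (adjusted p = 0.0464).

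The strain comparison on 10% fat was made for each pair of strains, as the mean over the sexes. For NZO/HlLtJ against C57BL/6J 3 members were called (2 higher, 1 lower) beside 43.8% of all genes. For CAST/EiJ against C57BL/6J there were 5 (4 higher, 1 lower) beside 48%, and for NZO/HlLtJ against CAST/EiJ 5 (3 higher, 2 lower) beside 54.8%. The first share is below the background and the others are near it. Pairs of these comparisons share a strain's libraries, and the sources used here do not give whether reads were counted with strain variants in mind.

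Cdk6 differed most. Across all 15 CAST/EiJ libraries it was at 10.9 to 17.4 CPM (median 14.3), above all 16 C57BL/6J libraries, at 2.25 to 6.31 CPM (median 2.99). On 10% fat NZO/HlLtJ lay near C57BL/6J, at 1.97 to 5.93 CPM. CAST/EiJ exceeded C57BL/6J by 2.02 on the log2 scale (SE 0.185, adjusted p = 6.49e-12), a 4.06-fold difference, and NZO/HlLtJ was lower than CAST/EiJ by 1.92 (SE 0.194, adjusted p = 8.65e-11). The NZO/HlLtJ males on 44% fat were at 11, 11.2 and 24.9 CPM, so that 2 of these libraries lay at the low end of the CAST/EiJ range and 1 lay above it.

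Cdkn2c was also highest in CAST/EiJ. On 10% fat it was at 8.63 to 15.1 CPM (median 9.79) there, at 5.36 to 7.32 CPM (median 6.12) in C57BL/6J and at 4.02 to 7.3 CPM (median 6.11) in NZO/HlLtJ. The CAST/EiJ range lay above both others. The log2 difference was 0.87 against C57BL/6J (SE 0.136, adjusted p = 1.11e-06), and NZO/HlLtJ was lower than CAST/EiJ by 0.94 (SE 0.143, adjusted p = 6.6e-07).

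Cdkn1a was highest in NZO/HlLtJ. On 10% fat it was at 29.5 to 68.8 CPM (median 48.6) there, at 18.7 to 28.7 CPM (median 22.9) in C57BL/6J and at 17.6 to 35.2 CPM (median 26.3) in CAST/EiJ. All NZO/HlLtJ libraries lay above those of C57BL/6J, and the range overlapped that of CAST/EiJ. The log2 difference was 1.12 against C57BL/6J (SE 0.205, adjusted p = 3.21e-05) and 0.92 against CAST/EiJ (SE 0.214, adjusted p = 0.000422). Cdkn2a was higher in NZO/HlLtJ than in CAST/EiJ by 1.04 (SE 0.349, adjusted p = 0.0115), at 0.142 to 0.423 against 0.0636 to 0.285 CPM, ranges that overlapped at these few counts.

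Ccnd1 was highest in C57BL/6J, at 85.3 to 182 CPM on 10% fat (median 143), with 45.8 to 112 CPM in NZO/HlLtJ (median 96.8) and 56.6 to 89.7 CPM in CAST/EiJ (median 63.9). It was lower than in C57BL/6J by 1.03 in CAST/EiJ (SE 0.17, adjusted p = 3.47e-06) and by 0.61 in NZO/HlLtJ (SE 0.168, adjusted p = 0.00322). The difference of 0.42 between NZO/HlLtJ and CAST/EiJ (SE 0.173, adjusted p = 0.0393) was lost without any of 6 single libraries (adjusted p = 0.0575 to 0.103), which were CAST/EiJ female replicate 2 and male replicate 3, NZO/HlLtJ female replicates 1 and 4, and NZO/HlLtJ male replicates 2 and 3, all on 10% fat. Ccnd3 went the other way. It was at 30.1 to 35.8 CPM in C57BL/6J on 10% fat, below CAST/EiJ at 36.8 to 47.4 CPM by 0.31 (SE 0.0649, adjusted p = 0.000104) and below NZO/HlLtJ at 33.8 to 42 CPM by 0.27 (SE 0.0649, adjusted p = 0.000835).

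Cdk4 was higher in CAST/EiJ than in C57BL/6J by 0.14 (SE 0.0451, adjusted p = 0.00963), at 90.8 to 108 against 82.9 to 95.1 CPM, a call that library totals alone ended (0.12, adjusted p = 0.55). Ccnd2, Cdkn1b and Cdkn1c differed between no pair of strains on 10% fat by this test. Ccnd2 medians there were 1210 CPM in C57BL/6J, 1280 CPM in CAST/EiJ and 1510 CPM in NZO/HlLtJ. Between males and females on 10% fat, as the mean over the strains, edgeR called none of the 10 members, beside 0.911% of all genes. DESeq2 called 0 members, beside 378 of all 20306 genes. No member had an unadjusted p under 0.05, beside 2554 of all genes. The sex difference ranged from -0.23 (Cdkn1c, SE 0.129) to 0.17 (Ccnd1, SE 0.137).

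Levels of 7 members may include reads of a gene on the opposite strand, since their exons overlap and the sources used here do not give whether counting used strand. The overlap is 641 bases of Cdk4 with Tspan31, 361 bases of Ccnd3 with Bysl and 1100 bases of Ccnd1 with Oraov1. Cdk4, Ccnd3 and Ccnd1, and these partners, had counts that were not whole in all 45 libraries. Among the other overlapping members, Ccnd2 had such counts in 13 libraries, Cdkn1c in 15, and Cdk6 and Cdkn1a in 0. In NZO/HlLtJ the diet effect on Tspan31 was 0.13 (SE 0.0777, not called) as the mean over the sexes, beside the fall of Cdk4. By sex it was called higher in females, at 0.43 (SE 0.102, adjusted p = 0.00274), and was -0.18 (SE 0.118, not called) in males. Bysl was at 0.11 (SE 0.13) and Oraov1 at 0.09 (SE 0.0806), neither called. On 10% fat Bysl was higher in NZO/HlLtJ than in C57BL/6J by 0.55 (SE 0.125, adjusted p = 0.000461), the direction of Ccnd3, and Oraov1 differed by -0.06 (SE 0.0777, not called). Cdkn1b on chromosome 6, and Cdkn2a and Cdkn2c on chromosome 4, overlap no exon of another gene in the GRCm38 annotation used.

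Across the 12 group means, genes were ranked by Pearson's r with each member, as a description over points that share libraries, depth and cell makeup. On the deposited log2 values the genes named ranked 1 to 5 for their member, apart from Myom2. The closest genes to Ccnd1 were BC046401 (r = 0.979) and Prom1 (r = 0.976), and to Ccnd3 Slc25a21 (r = 0.973) and Ethe1 (r = 0.969). The closest to Ccnd2 were Ap3d1 (r = 0.988) and Opa1 (r = 0.976), and to Cdk4 Rab7 (r = 0.966) and Dlat (r = 0.965). Cdk6 was closest to Gng11 (r = 0.987) and Myom2 (r = 0.982, but rank 24 with r = 0.959 on the deposited log2 values), Cdkn1b to Spryd7 and Tom1 (r = 0.964 each), and Cdkn1a to Ccl19 (r = 0.96) and Rbms2 (r = 0.941). The nearest to Cdkn1c were Acads (r = 0.889) and Efna3 (r = 0.877), to Cdkn2a Rrs1 (r = 0.966) and Haus4 (r = 0.963), and to Cdkn2c Gm27003 (r = 0.954) and Rnmt (r = 0.934). Among the members themselves, Ccnd2 and Cdkn1b had r = 0.858, Cdk4 and Cdkn1b 0.811, and Ccnd2 and Cdk4 0.798 over the 12 means, while Ccnd1 and Cdk6 had r = -0.716.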

How the data were processed

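The authors deposited a table of estimated counts per gene, not normalised, and, for the same 45 libraries, a table of log2 values after variance stabilisation. Per the submitters' processing notes the genome build was GRCm38 and DESeq2 was used, with no role stated. Of the deposited counts 23.6% are not whole, and the sources used here do not give the aligner, the counter or any use of strand. Values were rounded to whole counts. The test was edgeR 4.0.16 (R 4.3.3) with TMM factors, its default filter over 12 groups, 1 model of 45 libraries and 19 contrasts. Each standard error is the absolute log2 fold change divided by the square root of F. Levels per length use exon lengths of the GRCm38 annotation. DESeq2 1.42.0, limma 3.58.1 on the deposited log2 values and other alternatives were also run, and the scripts were tested on simulated data. All members are named, up to 3 genes per pathway list by smallest adjusted p, plus Rb1, E2f2 and Myc, which were chosen after their values were seen, as were the genes that overlap members. Members and lists were chosen with earlier results of these data known. For each member the 2 genes closest by Pearson's r are named. Promoter sequences and their build are from RefSeq.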

Additional observations from a re-analysis of the deposited data

Results flagged for a closer look

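Within the 9 groups of 4 libraries, 8 of 90 values of a member in a group lay far from the other 3 by Dixon's criterion. Chance flags about 1 in 20 groups. The high libraries were NZO/HlLtJ female 44% fat replicate 2 for Ccnd1 (200 CPM), CAST/EiJ female 44% fat replicate 3 for Ccnd3 (40.2 CPM), CAST/EiJ male 44% fat replicate 3 for Cdk4 (100 CPM), C57BL/6J male 10% fat replicate 3 for Cdkn1b (91.9 CPM), NZO/HlLtJ female 10% fat replicate 3 for Cdkn1c (2.42 CPM) and C57BL/6J female 44% fat replicate 3 for Cdkn2a (0.36 CPM). The low libraries were CAST/EiJ female 10% fat replicate 2 for Ccnd1 (56.6 CPM) and NZO/HlLtJ female 44% fat replicate 3 for Cdkn2a (0.129 CPM).

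Interactions called in edgeR, in which a member's diet effect differed between strains or sexes, were as follows. Against C57BL/6J, the NZO/HlLtJ diet effect differed by -0.65 for Ccnd2, -0.24 for Cdk4 and 1.41 for Cdk6. Against CAST/EiJ it differed by -0.76 for Ccnd2, -0.24 for Cdk4, 1.24 for Cdk6, -0.39 for Cdkn1b and 0.73 for Cdkn1c. Between the sexes of NZO/HlLtJ it differed by 1.30 for Cdkn1c. No explanation was tested for any of these.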

How the results depend on the processing

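Each member's log2 fold change was refitted under RLE normalisation, library totals, no expression filter, DESeq2, limma on the deposited values, the code series or the acinar score as a covariate, without the 5 libraries with transcripts of another strain, on each strain alone, and without each library in turn. A further setting, tagwise dispersions first, was chosen after seeing the data. Of the 4710 refits, no called value changed sign, 52 calls were lost and 42 were gained. In the mean diet effect of NZO/HlLtJ, Ccnd2, Cdk4, Cdk6 and Cdkn1b were called in all 24 alternatives, with log2 fold changes of -0.76 to -0.54, -0.37 to -0.20, 1.07 to 1.43 and -0.46 to -0.28.

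The count of members called changed by more than 1.5 times as follows, and the cause was not tested. In NZO/HlLtJ females it was 4, but 1 with library totals, 0 with that strain's libraries alone, and 1 to 4 without single libraries. In NZO/HlLtJ males it was 5, but 3 with library totals, 3 without the 5 libraries and 3 to 6 without single libraries. In C57BL/6J, and in its males, it was 0, but 1 (Cdkn2c) with DESeq2, beside 48 and 46 of all genes, and 0 to 1 without single libraries. For the diet-by-strain interaction it was 3 against C57BL/6J, with 3 to 5 without single libraries, and 5 against CAST/EiJ, with 2 under library totals. For the diet-by-sex interaction in NZO/HlLtJ it was 1, but 3 with the code series as a factor, 0 without the 5 libraries and 0 to 2 without single libraries. With library totals the number of all genes called went from 3492 to 1489 in NZO/HlLtJ females and from 6518 to 3308 in males. For the interaction against CAST/EiJ this number went from 5209 to 2627. Library totals moved the median of all genes in the NZO/HlLtJ diet effect from -0.02 to -0.15, and in females from -0.01 to -0.22 (log2). In CAST/EiJ females the shift was from 0.02 to 0.30, and in the interactions of NZO/HlLtJ from -0.04 to -0.24 against C57BL/6J and from -0.01 to -0.23 against CAST/EiJ. Depth limits Cdkn2a most, at 2 to 49 counts.

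No paired analysis was possible because replicates were numbered by accession and no label links libraries of different groups.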
